A study of Homo sapiens with 8 samples.

Results

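The comparison described here set 1 array of U87 cells in which RND3 (also called RhoE) had been knocked down for 48 h (siRND3) against 1 array of U87 cells that received a non-silencing control for 48 h (siControl). These are 2 of the 8 samples of the series, chosen by their labels. The other 6 samples were taken at 24 h, 3 with siRND3 and 3 with siControl. U87 is an established human glioblastoma line, and all 8 samples were of the same line, reverse transfected with siRNA using Lipofectamine RNAiMAX. Per the methods, either of a pair of siRNA oligos was used, and the source for each array is not stated, so an effect of RND3 loss and an effect of one oligo on other transcripts cannot be told apart here. All 8 arrays lay on 1 slide, with siRND3 in row 1 and siControl in row 2, and the position on the slide is thus confounded with knockdown. The 24 h arrays lay in columns 1 to 3 and the 48 h arrays in column 4, so position is confounded with time as well.

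RND3 is an atypical small GTPase that stays bound to GTP and is regulated mainly through its amount, phosphorylation and location. It is known for opposing RhoA and the kinase ROCK1, and so for loosening actin stress fibres and changing how cells spread and migrate. Interleukins, chemokines and secreted proteases, which make up many of the genes described below, are signals and enzymes through which glioblastoma cells act on surrounding tissue.

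Values are log2 intensities after quantile normalisation. Of 42405 probes, 30222 were well above background on at least 1 of the arrays at 48 h and were tested. With 1 array a side there was no replicate at 48 h. Standard errors and adjusted p-values came from a limma fit to all 4 groups, in which the spread was measured at 24 h and the 48 h arrays were assumed to vary as much. "Rose" and "fell" are used for probes with a Benjamini-Hochberg adjusted p of at most 0.05 in that fit. The labels do not say that the 24 h replicates were separate transfections, so these p-values may measure technical spread only. In bulk RNA, fewer cells with a transcript and less of it per cell cannot be told apart.

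RND3 itself was lower in the siRND3 array. Its level was 11.48 in siControl and 9.83 in siRND3 at 48 h, and fell by 1.65 on the log2 scale (SE 0.16, adjusted p = 0.00181), leaving 31.9% of the control intensity. The 10 spots of the RND3 probe read 11.41 to 11.54 on the siControl array and 9.71 to 9.89 on the siRND3 array, so they did not overlap. At 24 h the 3 siControl arrays read 11.88 to 11.91 and the 3 siRND3 arrays 10.13 to 10.41. The RND3 difference at 48 h minus that at 24 h was 0.01 (SE 0.19, adjusted p = 0.99).

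Across the array, 2804 probes rose and 2704 fell, together 18.2% of those tested (9.28% up and 8.95% down). By gene, 2093 of 15329 rose (13.7%), 1978 fell (12.9%) and 23 had probes past the threshold in both directions. Without any test, 11.1% of probes differed 2-fold or more, 1468 higher (4.86%) and 1893 lower (6.26%) in siRND3. For scale, replicate arrays of 1 group at 24 h differed 2-fold or more at 2.03% to 2.92% of the same probes, and single siRND3 and siControl arrays of the same number at 24 h at 4.33% to 4.39%. The 48 h arrays also had steeper spike-in dose curves (slopes 0.998 and 1.00) than the 24 h arrays (0.950 to 0.979), and the part of this in the result was not tested. Sizes depended on how the intensities were processed: 2-fold differences numbered 372 higher and 736 lower after normexp background correction, and 572 and 999 in the values the authors deposited.

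**Figure D1:**
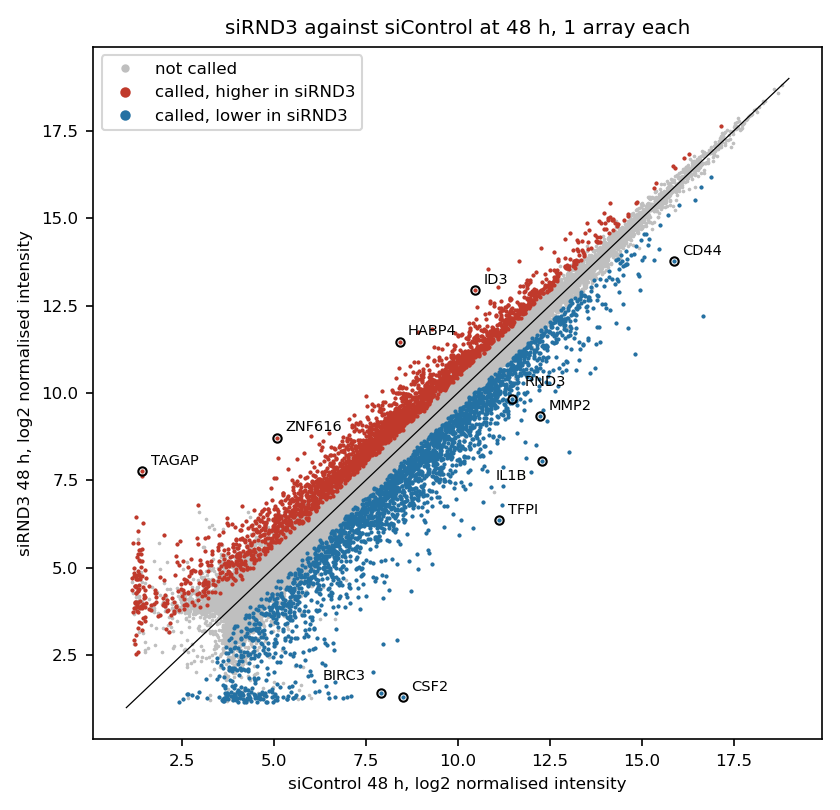
Log2 normalised intensity of each of 30222 probes on the siControl array (x axis) and the siRND3 array (y axis) at 48 h, 1 point a probe, with the 2804 probes that rose in red, the 2704 that fell in blue and the line of equal level in black. RND3 lies below the line at 11.48 and 9.83, and the points along the left and lower edges are probes near background on 1 array.

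Cytokines and chemokines, the secreted signals of inflammation, gave the lowest median of the lists examined apart from the 10 genes the study itself names. Of 22 measured, 14 fell and 1 rose, against 12.9% and 13.7% of all genes, and their median difference was -1.84 beside 0.06 for all genes tested. This median was smaller in size under other processing, being -0.82 in the deposited values and -0.59 after normexp correction. IL1B, a central inflammatory cytokine, read 12.29 in siControl and 8.05 in siRND3, and fell by 4.24 (SE 0.16, adjusted p = 0.00011). Its 10 spots ran from 12.12 to 12.40 on the siControl array and from 7.95 to 8.20 on the siRND3 array.

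The gap in IL1B widened from both sides between the times. The siControl arrays read 10.87 to 11.15 at 24 h and 12.29 at 48 h, while the siRND3 arrays read 9.38 to 9.51 at 24 h and 8.05 at 48 h. CCL3, a chemokine for monocytes, went the same way, from 11.35 to 11.42 in siControl at 24 h to 11.999 at 48 h, and from 9.76 to 10.08 in siRND3 to 7.73. CXCL8, which attracts neutrophils, read 7.97 in siControl and 4.13 in siRND3 at 48 h. For these 3 genes the siRND3 array at 48 h was the lowest of the 8 and the siControl array at 48 h the highest.

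CSF2, the growth factor of granulocytes and macrophages, was not well above background in siRND3 at 48 h. It read 8.51 in siControl and 1.30 in siRND3, and was at least 62.7-fold lower (adjusted p = 0.00013), with 2 spots per array that agreed (8.49 and 8.54 against 1.21 and 1.39). Such a bound sets the bright array against the lowest signal called above background on the dim one, or the dim reading if higher. In the latter case the bound is the measured difference. A bound holds for these processed intensities only. The log2 difference of CSF2 was -3.58 in the deposited values and -2.62 after normexp, both smaller than the bound. At 24 h its 3 siControl arrays read 6.32 to 6.42 and its 3 siRND3 arrays 2.99 to 3.66. Also lower were IL6, an activator of STAT3, at 10.88 and 8.31 (adjusted p = 0.00025), the related LIF at 11.60 and 8.85 (adjusted p = 0.00047), and CSF3, the granulocyte factor, at 11.84 and 8.60 (adjusted p = 0.0002). These 3 were chosen after their values were seen. CSF1, the macrophage growth factor, was the member that rose, from 9.76 to 10.87 (adjusted p = 0.047), and it lost the call in 7 alternatives.

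Markers of other cell types were checked beside this list. Of 5 microglia and macrophage markers, 4 were well above background, and the summed linear intensity of the list was 2760 in siControl and 968 in siRND3, of which CSF1R (11.30 and 9.59 on the log2 scale) gave most. No array showed CX3CR1 well above background. Of 5 neuron markers, 3 were well above background and the sum went from 2045 to 979, mostly through SNAP25 (10.90 and 9.80), while RBFOX3 and STMN2 were not well above background on any array. The sums of the endothelial (312 and 313), epithelial (1527 and 1527) and oligodendrocyte lists (791 and 939) moved less, though 2 of the 3 PECAM1 probes fell, one of them from 6.69 to 3.25 (adjusted p = 0.00171). The part of these markers in the result was not tested. Of the line's own markers, VIM read 17.28 and 17.10, while GFAP and S100B, both astrocytic, were not well above background on either 48 h array.

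**Figure D2:**
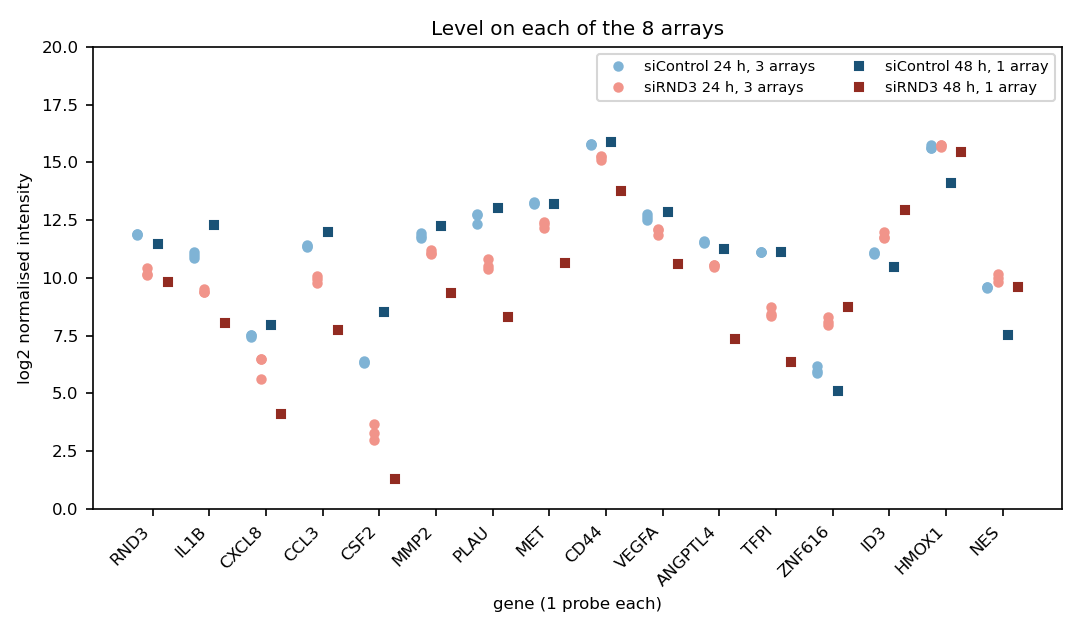
Log2 normalised intensity (y axis) of 16 genes (x axis) on every array, with circles for the 3 arrays of each treatment at 24 h and squares for the single arrays at 48 h. RND3 is separated by treatment to a like extent at both times, whereas for IL1B the squares (12.29 and 8.05) lie further apart than the circles.

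In the NF-kB pathway, which drives many inflammatory genes, 11 of 34 measured genes fell and 3 rose, against 12.9% and 13.7% of all genes, with a median of -0.42. BIRC3, an inhibitor of apoptosis, was at least 41.6-fold lower (7.92 and 1.42, adjusted p = 0.0002), with spots at 7.92 and 7.93 against 1.31 and 1.54. Its log2 difference was -3.12 in the deposited values and -2.25 after normexp, smaller than that bound. TLR4, a receptor for bacterial products, fell from 7.89 to 5.78 by one probe, and NFKBIA, the inhibitor that holds NF-kB in the cytoplasm, fell from 12.59 to 11.72 (adjusted p = 0.00631; chosen after its value was seen). TRAF2 and TRAF6, adaptors of receptor signalling, rose by 0.89 and 0.81. The subunit RELB, among the genes the study names as lowered, fell from 11.32 to 10.15. The subunit NFKB1 read 9.42 and 9.40, and RELA 10.14 and 9.79 (adjusted p = 0.95 and 0.182).

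Promoters in RefSeq (GRCh38.p14, the 250 bases before each start) were searched on both strands for the NF-kB consensus by name and for AP-1 as TGANTCA. The NF-kB letters were in 4 of 11 cytokine genes that fell and had a promoter (36.4%), in 7 of all 17 in the list (41.2%) and in 7.92% of all 12084 genes tested with a promoter. AP-1 letters were in 36.4% of the same 11 and in 6.69% of all. Among all genes that fell, 9% held the NF-kB letters, and among those that rose 6.73%. The windows below are shown because BIRC3 and CXCL8 were among the genes with the lowest values in siRND3, with capitals marking the matched letters: NF-kB for BIRC3 at chr11:102317275-102317304 and chr11:102317339-102317368, and AP-1 for CXCL8 at chr4:73740422-73740448. All are printed as the plus strand reads. The CXCL8 letters match on that strand, and both BIRC3 matches are of the reverse strand, so the capitals there are the reverse complement of the consensus.
BIRC3 first match: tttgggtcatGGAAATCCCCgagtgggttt
BIRC3 second match: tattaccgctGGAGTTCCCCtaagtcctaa
CXCL8 match: ggaagtgtgaTGACTCAggtttgccct
A match of letters describes the sequence only.

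Of 37 genes of hypoxia and glycolysis, 13 fell and 0 rose in the limma fit (1 at an unadjusted p of 0.05), against 12.9% and 13.7% of all genes, with a median of -0.42. VEGFA, the main angiogenic growth factor, fell from 12.84 to 10.59 by one probe (adjusted p = 0.00104) and from 10.85 to 8.80 by another. BNIP3, a mitophagy receptor, fell from 14.04 to 12.43, and CA9, a carbonic anhydrase of hypoxic cells chosen after its value was seen, from 10.77 to 9.40 (adjusted p = 0.00183). HIF1A, the oxygen-regulated factor itself, read 10.01 and 8.95 by one probe and 12.67 and 11.65 by another (adjusted p = 0.0154 and 0.0356), and the latter lost the call in 6 alternatives.

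The hypoxia response core ACGTG stood in the promoters of 9 of 11 such genes that fell (81.8%), of 54.5% of the list and of 27.6% of all genes tested. These genes had more listed promoters each (a mean of 1.91 against 1.44), so more bases were searched for them. ANGPTL4, an angiogenic factor and lipase inhibitor, is not in this list and is not among the genes counted. It read 11.24 and 7.35 (adjusted p = 6.44e-05), and holds the letters in reverse at chr19:8363911-8363935, shown with the match in capitals.
ANGPTL4: aaagaagagtCACGTctcccacggt

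Invasion genes included some of the largest falls. PLAU, the urokinase that activates plasmin, read 13.02 in siControl and 8.31 in siRND3, and fell by 4.71 (SE 0.29, adjusted p = 0.00046). MMP2, a gelatinase of basement membrane, read 12.25 and 9.33, and fell by 2.92 (SE 0.16, adjusted p = 0.00031). On all 3 siRND3 arrays at 24 h MMP2 lay between 11.05 and 11.23, above the 48 h value. Over the whole list of matrix proteases and inhibitors, 6 of 26 fell (23.1%, against 12.9% of all genes) and 2 rose (7.69%, against 13.7%), and the median was -0.12.

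Of 34 collagens, 6 rose and 6 fell (17.6% each way, against 13.7% and 12.9% of all genes), with a median of 0.00. COL4A2, a chain of basement membrane collagen, fell from 12.13 to 8.50 (adjusted p = 8.87e-05). COL19A1 passed upward, but its 2 spots on the siRND3 array read 1.32 and 5.26. Among integrins and laminins, 5 of 28 fell (17.9%) and 2 rose (7.14%), to be read against the same shares. TFPI, an inhibitor of coagulation, had the largest fall among probes that passed, had a gene symbol and were well above background on both arrays. It went from 11.14 to 6.37 (SE 0.19, adjusted p = 0.00012), while its other probe fell by 0.99.

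Some receptors and mesenchymal markers fell. Of 29 receptor tyrosine kinases, 6 fell and 0 rose in the limma fit (4 were higher at an unadjusted p of 0.05), against 12.9% and 13.7% of all genes, while their median was 0.04, and below 0 after normexp and in the deposited values. MET, the receptor for hepatocyte growth factor, read 13.22 and 10.67 (fell by 2.55, SE 0.15, adjusted p = 0.0004). CD44, a hyaluronan receptor, read 15.88 and 13.77 (fell by 2.11, SE 0.14, adjusted p = 0.00057), and its 3 siRND3 arrays at 24 h read 15.09 to 15.30. Of 35 mesenchymal glioblastoma markers 13 fell and 2 rose, against 12.9% and 13.7% of all genes, with a median of -0.37. CHI3L1, a widely used mesenchymal marker, read 14.42 and 13.98 (adjusted p = 0.0931). Of the 10 genes the study names as lowered, 9 fell, but those were chosen on samples of this series and are not independent evidence. IL1R1, the tenth, read 7.54 and 7.07 by one probe (adjusted p = 0.332) and 5.25 and 5.28 by another.

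Proneural and neural stem cell markers went both ways, with 3 of 18 up (16.7%) and 5 down (27.8%), against 13.7% and 12.9% of all genes. NES, an intermediate filament of neural progenitors, rose by 2.10 by one probe, from 7.53 to 9.62. At 24 h that probe read 9.57 to 9.61 in siControl, so the siControl array at 48 h was the one that stood apart. The other NES probe read 9.25 and 9.62 (adjusted p = 0.216).

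Of 39 measured small GTPases related to RND3 and their effectors, 8 fell (20.5%), RND3 included, and 4 rose (10.3%), against 12.9% and 13.7% of all genes, with a median of -0.08. RHOA, the GTPase that RND3 opposes, read 13.17 and 13.16, and RHOC 13.66 and 13.62. ROCK1, by its brighter probe, read 9.63 and 9.86 (adjusted p = 0.471). RND2, a close relative of RND3, was at least 3.19-fold lower (5.10 and 3.42, adjusted p = 0.0188), but its log2 difference was -0.60 in the deposited values and -0.38 after normexp, and it lost the call in 1 alternative. Of 27 actin cytoskeleton genes of the SRF type 6 fell (22.2%) and 2, MYLK (a myosin kinase) and CNN1 (calponin), rose (7.41%), by 0.66 and 0.47. CNN1 lost the call in 11 alternatives and MYLK in 4, and the other MYLK probe did not pass. In siControl MYLK read 12.92 to 13.00 at 24 h and 12.40 at 48 h, and in siRND3 12.91 to 13.13 and 13.06. Among those that fell were VCL (vinculin, an adhesion linker), from 12.47 to 10.59, and TPM1 (tropomyosin), from 12.16 to 10.62.

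Of 55 genes of G2/M and mitosis, 19 fell and 1 rose, against 12.9% and 13.7% of all genes, with a median of -0.31 at 48 h beside 0.12 at 24 h, when 5 fell and 4 rose beside 8.28% and 6.22% of all genes. HMMR, a spindle protein, fell from 11.82 to 9.52 (adjusted p = 0.00045), BUB1B, a checkpoint kinase, from 11.06 to 9.34, and NUF2, a kinetochore protein, from 9.41 to 7.72. BIRC5 (survivin) rose from 13.77 to 14.36. The difference between times passed its own test, lower at 48 h, for 5 of the 55 genes and for 2.56% of all genes, and, higher at 48 h, for 0 of the 55 and 1.75% of all genes.

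Of 60 genes of S phase and DNA replication, 8 rose (13.3%, near the 13.7% of all genes) and 3 fell (5%, against 12.9%), with a median of 0.17. At 24 h 17 rose and 1 fell, against 6.22% and 8.28% of all genes. CCNE2, a cyclin of S phase entry, rose from 6.81 to 7.76 (adjusted p = 0.00825). MCM3, a subunit of the replicative helicase, read 13.17 and 12.88 (adjusted p = 0.16), and MCM7, another, 14.87 and 15.27 (adjusted p = 0.117). CDK2, the kinase partner of cyclin E, fell from 7.51 to 5.23 (adjusted p = 0.00035) and was lower at 24 h too, with siControl at 7.60 to 7.65.

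**Figure D3:**
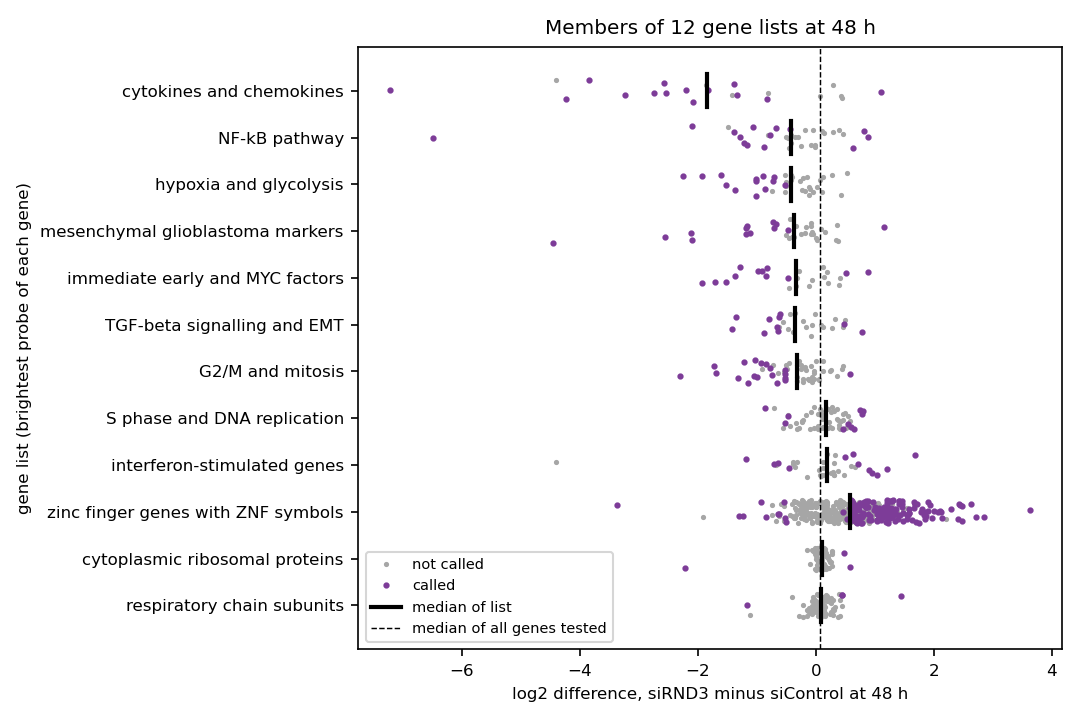
Log2 difference siRND3 minus siControl at 48 h (x axis) of the members of 12 gene lists (y axis), 1 point a gene by its brightest probe, purple where that probe passed the threshold, with the median of each list as a bar and that of all genes tested (0.06) as a dashed line. The cytokines lie furthest to the left (median -1.84) and the zinc finger genes to the right (median 0.57).

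Zinc finger genes with ZNF symbols, mostly DNA-binding repressors, had the highest median of the lists examined. Of 395 measured, 159 rose and 14 fell, against 13.7% and 12.9% of all genes, with a median of 0.57, or 0.31 after normexp correction. At 24 h 74 rose and 10 fell, against 6.22% and 8.28% of all genes. ZNF616 rose most among probes that passed, had a gene symbol and were well above background on both arrays. It went from 5.10 to 8.73 (SE 0.21, adjusted p = 0.00042), and at 24 h read 5.87 to 6.17 in siControl and 7.96 to 8.30 in siRND3. Members of this family are close paralogs, and probes may take up signal from related transcripts. The falls of ZNF790, ZNF546 and ZNF544 each rest on 1 spot that was well above background only on the siControl array at 48 h, and a second ZNF546 probe read 4.74 and 5.98.

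Other large rises had varied roles. ID3, an inhibitor of basic helix-loop-helix factors, rose from 10.47 to 12.95 (adjusted p = 0.00049). HABP4, a hyaluronan and RNA binding protein, rose from 8.43 to 11.47, and CDK14, a kinase of Wnt signalling, from 5.11 to 8.14. For CDK14 the siRND3 arrays read 8.004 to 8.28 at 24 h, so the 48 h gap grew through the siControl array, which had read 6.73 to 6.81. OGFR rose by 2.84 by one probe, while its much brighter probe read 14.63 and 14.74.

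Of 37 interferon-stimulated genes, 8 rose (21.6%, against 13.7% of all genes) and 4 fell (10.8%, against 12.9%), with IFIT2, an RNA-binding antiviral protein, up by 1.72. Of 36 genes of the unfolded protein and ATF4 responses 10 fell (27.8%) and 1 rose (2.78%), and SLC7A11, the cystine transporter, fell from 10.55 to 8.32. HMOX1, a heme-degrading enzyme, rose from 14.13 to 15.45. At 24 h it read 15.61 to 15.78 in siControl and 15.68 to 15.76 in siRND3, so the siControl array at 48 h stood apart. Cytoplasmic ribosomal proteins (3 of 77 up, 3 down) and respiratory chain subunits (3 of 79 up, 3 down) stand beside 26.6% of all genes that rose or fell. Of 15 common control genes, 2 fell, TFRC (the transferrin receptor) among them, and 0 rose in the limma fit (0 at an unadjusted p of 0.05).

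Among other large falls, SINHCAF, a subunit of a histone deacetylase complex, read 8.73 and 4.35 by one probe and 10.80 and 7.76 by another. SLC16A6, a transporter of the monocarboxylate family, fell from 9.32 to 5.11, and ST8SIA5, a sialyltransferase, from 11.21 to 6.81. SUB1, a transcriptional coactivator, fell from 10.05 to 5.94 by one probe, while its brighter probe read 12.34 and 12.38. TMEM64 was at least 42.9-fold lower by one probe, while its other probe read 7.81 and 6.24. INMT was at least 35.2-fold lower and UBASH3B, a phosphatase, at least 23.6-fold. The log2 differences of these 3 genes in the deposited values were smaller than those bounds, at -3.11, -2.85 and -2.37 in the same order, and after normexp they were -2.24, -2.12 and -1.60.

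Some probes were seen on only 1 of the arrays at 48 h. TAGAP was at least 40.0-fold higher and one PURG probe at least 36.4-fold higher in siRND3 (7.76 and 7.62), but both rest on 1 spot, the other 7 arrays read at most 1.73, and the second PURG probe fell from 6.004 to 4.75. In the deposited values these log2 differences were 2.84 for TAGAP and 2.88 for PURG. In all, 106 of 210 probes well above background only on the siRND3 array at 48 h, of the 8 arrays, rose. Of 206 such probes on the siControl array at 48 h, 108 fell. Of all probes tested, 9.28% rose and 8.95% fell. The probes seen on 1 array passed the filter only through the array on which they were bright, so these shares are no result about them. For probes with repeated spots the arrays gave their own technical check: of 1747 such probes that rose or fell, 97.8% had no overlap between the spots of the arrays, against 64.4% of those that did not pass, and spots are not biological replicates.

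The 48 h differences were wider than those at 24 h in the same probes. Of the probes that rose or fell at 48 h, 2247 did so in the same direction at 24 h, which is 40.8% of the 48 h calls and 75.1% of the 2992 calls at 24 h (9.9% of the probes), and 13 went the opposite way. The difference between the times passed its test for 887 probes (2.93%), 365 higher and 522 lower at 48 h. That count fell to between 169 and 433 when any 1 of the 6 arrays at 24 h was left out.

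**Figure D4:**
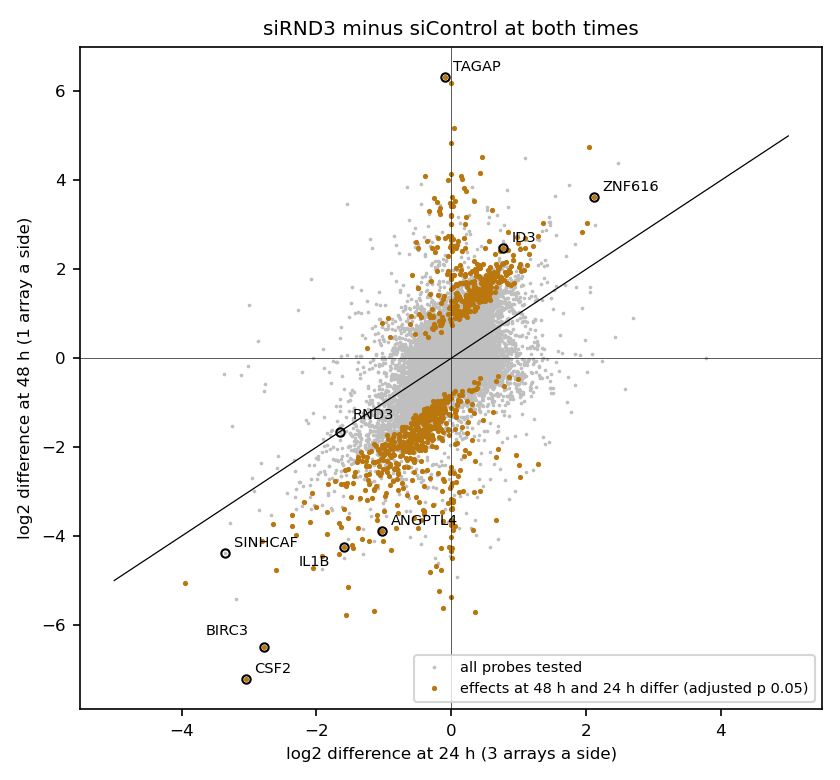
Log2 difference siRND3 minus siControl at 24 h (x axis, means of 3 arrays a side) and at 48 h (y axis, 1 array a side) for each probe, with the 887 probes whose differences passed the test between times in orange and the line of equal difference in black. RND3 lies on the line, IL1B, ANGPTL4, BIRC3 and CSF2 lie below it, and TAGAP is near 0 at 24 h.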

How the data were processed

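Total RNA of U87 cells was Cy3-labelled with the Agilent Low-input Quick Amp kit and hybridised to 1-colour Agilent human 8x60k arrays, 1 array a sample. The deposited scanner files hold spot intensity from Agilent Feature Extraction 10.7.3.1, background-subtracted within the array. The authors also deposited log2 values, quantile-normalised between arrays. Here the processed intensity was taken to log2, outlier spots were dropped, 4259 control spots left out, the 8 arrays quantile-normalised and spots of a probe averaged, in R 4.3.3 with limma 3.58.1. A probe was kept if at least 0.5 of its spots were well above background on either 48 h array. Of 42405 probes, 25422 matched a RefSeq symbol.

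The study's methods use SAM, which needs replicates in both arms, so a 4-group limma model (lmFit, eBayes) gave the 48 h difference with the spread of the 24 h arrays (residual df 4, prior df 2.14), Benjamini-Hochberg adjusted over all probes at 0.05. The number of arrays limits the precision: the median SE was 0.19. On simulated data the fit was tested for recovery of known changes, and no result here rests on that test. Probes near background on 1 array have only a lower bound on the fold. List medians use the brightest probe of a gene, and list counts take any probe.

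Named genes were RND3, the 10 the study names, the 10 largest rises and falls, up to 3 each way per list, the 5 largest bounds and the opposed genes each way; others, such as NFKB1, RELA, RHOA, RHOC, ROCK1, CHI3L1, MCM3 and MCM7, were chosen after their values were seen. Some genes that this rule takes are not reported here. Members, lists and rules were chosen with earlier results of these data known. Alternatives were other scalings, normexp (offset 50), the deposited log2 values, other filters, an intensity trend, array weights, a replicate block, gene means and leaving out each 24 h array. Replicate numbers were checked for pairing: deviations of same-numbered arrays correlated at 0.0054, -0.0169 and 0.0969, so the arrays share only a number.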

Additional observations from a re-analysis of the deposited data

Results flagged for a closer look

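For 62 of 174 named probes the siRND3 minus siControl difference at 48 h differed from that at 24 h in the limma interaction test (adjusted p from 9.93e-05 to 0.0479), 41 lower and 21 higher at 48 h. Of all probes tested, 2.93% passed this test. Most named probes were chosen by the size of their 48 h difference. The genes named for opposite calls at the 48 h and 24 h times were also chosen for passing this test. The share of named probes that passed is therefore no result about them. Values in parentheses are the log2 difference at 48 h minus that at 24 h, and the 48 h side has 1 array a treatment. The lowest values were those of UBASH3B (-4.22), CSF2 (-4.17), BIRC3 (-3.71), INMT (-3.61), ANGPTL4 (-2.87), CCL3 (-2.81), ST8SIA5 (-2.74), SLC16A6 (-2.74), PLAU (-2.66), IL1B (-2.66) and COL4A2 (-2.53). Shifts of intermediate size were seen for MMP2 (-2.20), TFPI (-2.16), NTRK3 (-1.81), VEGFA (-1.64), MET (-1.60), CD44 (-1.55), UQCRB (-1.52), VEGFA (-1.47), COL15A1 (-1.45) and RPL27A (-1.45), where VEGFA stands once for each of its probes. Smaller ones were seen for F3 (-1.35), IER3 (-1.34), SUB1 (-1.30), NDRG1 (-1.23), HMMR (-1.21), HNRNPA0 (-1.21), BNIP3 (-1.18), ITGA10 (-1.16), TIGAR (-1.13) and SLC7A5 (-1.12). Nearest to 0 were TMEM61 (-1.05), IRX6 (-1.05), SDHC (-1.03), KLF2 (-1.01), ADAMTS4 (-1.01), RUNX1 (-0.98), TLR4 (-0.88) and BUB1B (-0.78). Of 56 named genes with 2 or more tested probes, 14 had probes of both signs at 48 h. The brighter UQCRB probe read 14.44 in siControl and 14.61 in siRND3 at 48 h. Other probes differed at 48 h by 0.34 and 0.55 for NTRK3, 0.24 and 0.30 for SDHC, and -0.43 to -0.17 for RUNX1. None of these other probes passed at 48 h.

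Shifts upward at 48 h were THBS2 (0.75), STAM (0.83), LSS (0.86), OGFR (0.90), PMVK (0.94), HABP4 (1.03), HMOX1 (1.27) and HRK (1.41). Larger ones were SPEF1 (1.46), PITPNM3 (1.47), IFIT2 (1.501), ZNF616 (1.52), CDK14 (1.67), NES (1.68), ID3 (1.72), ZNF320 (2.01), NEFM (2.08) and COL19A1 (2.18). The brighter THBS2 probe read 10.47 in siControl and 10.48 in siRND3 at 48 h. For LINC02139 (-3.67), ZNF790 (-3.38), TRIM72 (4.07), PURG (6.20) and TAGAP (6.42) only 1 array showed the probe above its background, through 1 spot. COL19A1 was also above background on only 1 array, siRND3 at 48 h, where its spots read 1.32 and 5.26. Leaving out any 1 array at 24 h reduced the probes past this test from 887 to between 169 and 433.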

How the results depend on the processing

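RND3 stayed lower and past the threshold in all 16 alternatives, and of 174 named results past the threshold 118 stayed past it in all that were run for them, while 56 lost it in at least 1. Counts of probes differing 2-fold or more were 372 higher and 736 lower after normexp, 572 and 999 in the deposited values, 2413 higher without a filter and 968 higher when both 48 h arrays had to be above background. Thresholds of 1.5-fold gave 4079 higher and 3686 lower, and 4-fold gave 223 and 502. Normexp moved 57 named values by over 1.5-fold and the deposited values 43, all towards 0. A replicate block, though the numbers do not pair the arrays, left 1349 probes up, 1740 down, 1014 genes up, 1283 down and 79 differing between times. Probes differing between times numbered 1434 after normexp and 1526 with an intensity trend. Leaving out 1 array at 24 h gave 1860 to 2766 probes up, 2117 to 2712 down, 1395 to 2049 genes up, 1568 to 1994 down and 169 to 433 probes differing between times; without siControl replicate 3 probes up (1860) and genes up (1395) fell by over 1.5 times. One IL1R1 probe, which did not pass, changed sign after normexp (-0.081) and in the deposited values (-0.11). The cause of these shifts was not tested.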
